A study of Mus musculus with 12 samples.

Results

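Bone marrow progenitors of mice without the Cebpa +42kb enhancer were compared with those of wild-type mice by RNA sequencing, and the effect of genotype that is shared by the LSK fraction and the common myeloid progenitors (CMP) was measured. All 12 libraries of the series entered, 3 in each of 4 groups: enhancer-null CMP, wild-type CMP, enhancer-null LSK and wild-type LSK. The mice were of the C57BL/6 strain, and "enhancer-null" means that both copies of an enhancer 42 kb from Cebpa were missing. No treatment is named, and neither the age of the mice nor any pooling of animals is given in the sources used here. Enhancer-null libraries carry the numbers 1, 2 and 7 and wild-type libraries 1, 6 and 8, and values of 3 libraries are given below in that order. The shared effect of a gene is the mean of its 2 log2 fold changes, enhancer-null over wild type, in CMP and in LSK. A gene was called when edgeR's quasi-likelihood test of that mean gave a Benjamini-Hochberg adjusted p under 0.05 over all 12411 genes tested, and levels are CPM, counts per 1000000 counts of the scaled library.

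Cebpa encodes C/EBPα, a transcription factor that myeloid progenitors need to enter the granulocyte and monocyte pathway. It binds enhancers and promoters of genes of primary granules, cytokine receptors and metabolism, and it restrains cell cycle entry. LSK cells (lineage-negative, Sca-1-positive, Kit-positive) include the stem cells and the earliest multipotent progenitors, and CMP lie downstream of them, before the split into granulocyte-monocyte and megakaryocyte-erythroid progenitors.

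Gate markers were checked first. Ly6a, which encodes Sca-1, was at 136 to 198 CPM in the LSK libraries and at 0.189 to 13 CPM in the CMP libraries, and Kit was present in all 12 libraries. Gene counts ran from 6170491 to 49149674 per library, and 3 counts, taken as the floor of detection, were worth 0.0619 to 0.493 CPM. By Xist and Y-linked transcripts, enhancer-null numbers 1 and 2 and wild-type number 1 were male and the other numbers female, so that sex was not balanced between genotypes. Wild-type number 1 stood apart in both gates by its neutrophil transcripts, with values given beside the genes concerned. In bulk RNA, fewer cells of a type and less RNA per cell cannot be told apart.

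On average over CMP and LSK, 285 genes were called, 2.3% of those tested. Of these, 193 (1.56% of genes tested) were higher and 92 (0.741%) lower in enhancer-null cells. The effect had the same sign in CMP and LSK for 270 of them, 180 higher and 90 lower, and opposite signs for 15. Across all genes tested, 57.3% had the same sign in both. The test of a mean favours genes with 1 sign, so the share among calls is partly set by the test itself. The 180 shared rises had a median average log2 fold change of 1.15 and the 90 shared falls one of −1.30, while the median of all genes tested was −0.05. The size of the effect was larger in CMP than in LSK for 209 of the 285.

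Enhancer-null and wild-type libraries did not overlap in CMP and again in LSK for 194 of the shared genes, 127 higher (1.02% of genes tested) and 67 lower (0.54%). Called or not, 530 genes (4.27%) showed such a separation in 1 direction in both, 254 higher (2.05%) and 276 lower (2.22%). Tested for each gate by itself within the same fit, the genotype effect passed for 229 genes in CMP (1.85%) and 25 in LSK (0.201%). Of the 285 calls 158 also passed in CMP, 24 in LSK and 12 in both, and 115 passed in neither by itself. These 12 were Tcf7, Ier3, Scin, Cpa3, Fam189b, Lmo2, Arhgap6, Aff3, Gzmb, Tox, Ifitm3 and Pdgfrb, of which Lmo2 and Ifitm3 were lower and the others higher. Adjusting the larger of the 2 p-values left 5 genes (0.0403%), Scin, Cpa3, Tcf7, Ier3 and Fam189b, and limma voom left 2 of them, Fam189b and Ier3. The difference of the effect between CMP and LSK passed for 36 genes (0.29%), and 9 of the 270 shared genes were among them.

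**Figure D1:**
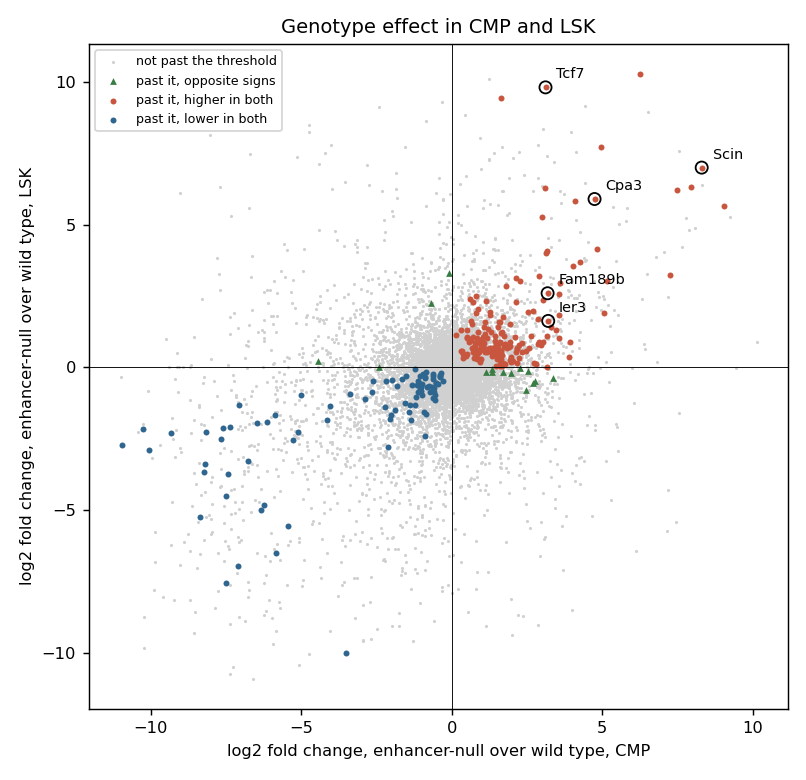
Each point is a gene, with its log2 fold change (enhancer-null over wild type) in CMP on the horizontal axis and in LSK on the vertical axis. Of the 285 calls, 180 lie in the upper right (red), 90 in the lower left (blue) and 15 in the upper left or lower right (green), and the 5 circled genes passed by the larger of their 2 p-values.

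The number of calls depended on single libraries. It ran from 146 without enhancer-null LSK replicate 1 to 470 without enhancer-null CMP replicate 2. It was 153 without enhancer-null LSK replicate 2, 164 without wild-type CMP replicate 6, 167 and 185 without wild-type CMP replicates 1 and 8, and 189 and 183 without wild-type LSK replicates 1 and 8. Without wild-type number 1 in both gates 98 genes were called, 85 higher and 13 lower. Of the 285 genes, 127 passed whichever 1 library was left out, 101 of them higher and 26 lower, and the genes described with full values below are of this kind unless a count of fits is given.

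The targeted gene came first. Cebpa (ENSMUSG00000034957.10, protein-coding, chromosome 7, 35119293 to 35121928, plus strand, mm10) had 544, 270 and 463 counts in the wild-type CMP libraries and 226, 118 and 39 in the wild-type LSK libraries. Enhancer-null CMP held 0, 3 and 0 counts and enhancer-null LSK 1, 0 and 15. No enhancer-null library reached a wild-type one in either gate. Cebpa fell on average over the gates (adjusted p = 0.00995), passed in CMP (adjusted p = 0.0336) and did not pass in LSK (adjusted p = 0.333). With both libraries of a number left out Cebpa passed in 4 of 6 fits, and missed without wild-type number 1 (adjusted p = 0.0707) or 8 (0.0589). Of the 7 CEBP family genes tested Cebpa was the 1 that edgeR called. Cebpb, a related factor of stress granulopoiesis, missed the threshold with an average log2 fold change of 1.09 (SE 0.30, adjusted p = 0.0843), but DESeq2 called it higher (adjusted p = 0.00853). Cebpb stood at 464, 178 and 162 CPM in enhancer-null against 115, 64.8 and 84.5 CPM in wild-type CMP, and its LSK values overlapped. Cebpd, Cebpe, Cebpg, Cebpz and Ddit3 had adjusted p of 0.413 to 0.996.

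Promoters of the genes with the largest shared rises and falls are printed to show what lies at the starts of genes that moved together. Each runs over the 250 bases before the start that RefSeq gives (build GRCm38.p6), 5′ to 3′ on the gene's strand. Capitals mark matches on either strand to any of 5 motifs. The motif called CEBP-like below is spelled TNNGCAA, and the GATA motif is spelled AGATAA. The motif of ETS factors like PU.1 is spelled AGGAAGT, that of RUNX factors is spelled TGTGGT, and that of TCF factors is spelled CTTTGA.
Trpv4, chr5:114658422-114658671, minus strand: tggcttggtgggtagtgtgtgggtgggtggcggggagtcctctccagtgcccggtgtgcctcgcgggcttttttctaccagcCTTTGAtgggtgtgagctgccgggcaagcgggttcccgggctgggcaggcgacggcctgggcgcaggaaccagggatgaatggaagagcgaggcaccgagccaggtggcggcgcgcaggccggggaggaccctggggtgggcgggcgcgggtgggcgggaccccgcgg
Scin, chr12:40134229-40134478, minus strand: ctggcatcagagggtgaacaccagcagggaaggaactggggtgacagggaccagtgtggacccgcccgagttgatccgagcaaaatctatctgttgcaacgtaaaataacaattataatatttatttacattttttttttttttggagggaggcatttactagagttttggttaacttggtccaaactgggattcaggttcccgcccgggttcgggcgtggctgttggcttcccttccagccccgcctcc
Gzmb, chr14:56262335-56262584, minus strand: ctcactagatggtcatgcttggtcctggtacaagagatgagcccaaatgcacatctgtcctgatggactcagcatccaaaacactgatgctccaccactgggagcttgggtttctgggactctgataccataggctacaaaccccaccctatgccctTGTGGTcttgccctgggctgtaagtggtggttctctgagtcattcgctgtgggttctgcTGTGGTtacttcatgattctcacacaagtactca
Btla, chr16:45224087-45224336, plus strand: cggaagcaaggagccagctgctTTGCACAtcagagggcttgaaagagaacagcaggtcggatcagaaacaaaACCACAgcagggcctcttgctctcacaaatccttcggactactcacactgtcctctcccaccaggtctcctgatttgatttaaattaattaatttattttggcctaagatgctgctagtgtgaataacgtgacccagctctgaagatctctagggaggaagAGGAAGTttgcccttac
Cebpa, chr7:35119043-35119292, plus strand: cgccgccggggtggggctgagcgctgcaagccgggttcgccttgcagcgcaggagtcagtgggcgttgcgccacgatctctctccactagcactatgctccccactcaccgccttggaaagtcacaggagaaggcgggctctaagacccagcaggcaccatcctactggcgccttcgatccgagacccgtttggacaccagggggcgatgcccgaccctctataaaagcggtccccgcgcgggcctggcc

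The Scin and Cebpa windows held none of the 5 motifs. Gzmb held 2 RUNX matches, whose first bases lie 93 and 34 bases before the start, and Trpv4 a TCF match at 168. Btla held a CEBP-like, a RUNX and an ETS match at 228, 178 and 17. Among named shared genes, 35 of 40 that rose and 28 of 36 that fell had an entry in the table. The CEBP-like motif was in 8 of the 35 (22.9%) and 13 of the 28 (46.4%), beside 32.8% of all 32851 promoters. The ETS motif was in 1 and 6 (2.86% and 21.4%, beside 7.69%), the RUNX motif in 10 and 4 (28.6% and 14.3%, beside 14%), the TCF motif in 8 and 4 (22.9% and 14.3%, beside 13.8%), and the GATA motif in 1 and 2 (2.86% and 7.14%, beside 9.99%). The 13 with a CEBP-like match included S100a9, Tmem243, Emb, Lyz2 and Hk3. A match describes these letters and is not evidence of binding, and these shares were not tested.

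The 5 genes past the threshold by the larger p were all higher. Scin (ENSMUSG00000002565.16, chromosome 12, 40059769 to 40134228, minus strand) encodes scinderin, a calcium-dependent actin-severing protein. Its level was 762, 643 and 743 CPM in enhancer-null against 2.95, 2.77 and 0.932 CPM in wild-type CMP. In LSK it was 120, 224 and 86.9 against 1.98, 0.638 and 0.444 CPM. The lowest enhancer-null library was thus far above the highest wild-type one in each gate, and the average log2 fold change was 7.65 (SE 0.44, adjusted p = 1.6e-06). The difference between gates did not pass (1.30, adjusted p = 0.729).

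Cpa3 (ENSMUSG00000001865.2, chromosome 3, 20215620 to 20242181, minus strand), a carboxypeptidase stored in mast cell granules, stood at 1105, 918 and 1368 CPM in enhancer-null against 65, 30.1 and 31.4 CPM in wild-type CMP. In LSK it stood at 559, 584 and 301 against 4.94, 13.4 and 6.03 CPM. Each enhancer-null library exceeded each wild-type one of its gate by more than the spread within groups (average log2 fold change 5.32, SE 0.33, adjusted p = 2.18e-06).

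Tcf7 (ENSMUSG00000000782.15, chromosome 11, 52252371 to 52283014, minus strand) encodes TCF-1, a nuclear partner of beta-catenin known for T cell commitment and for self-renewal of blood progenitors. Enhancer-null CMP held 164, 157 and 133 CPM and wild-type CMP 14.2, 21.1 and 17.3 CPM. Enhancer-null LSK held 188, 232 and 92.1 CPM, whereas wild-type LSK held 7, 3 and 2 counts (0.201, 0.213 and 0.127 CPM), near the floor. Enhancer-null libraries overlapped between the gates, and wild-type libraries did not. The average log2 fold change was 6.46 (SE 0.30, adjusted p = 3.49e-07), and the effect in CMP minus that in LSK was −6.70 (adjusted p = 0.000207).

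Ier3 (ENSMUSG00000003541.6, chromosome 17, 35821684 to 35822923, plus strand) is an immediate early gene linked to survival signalling. It was at 438, 339 and 400 CPM in enhancer-null against 49.9, 33.3 and 44.4 CPM in wild-type CMP, and at 443, 428 and 409 against 132, 147 and 134 CPM in LSK. Its average log2 fold change of 2.42 had an SE of 0.13 (adjusted p = 8.52e-07), and the effect was larger in CMP by 1.57 (adjusted p = 0.0205). Fam189b (ENSMUSG00000032657.15, chromosome 3, 89183143 to 89189295, plus strand), which encodes a membrane protein, was at 314, 168 and 223 against 25, 24.7 and 27.9 CPM in CMP. In LSK it was at 252, 168 and 165 against 24.2, 48.7 and 23.9 CPM. The rise was 2.89 on average (SE 0.24, adjusted p = 6.64e-05), and its difference between gates did not pass (0.59, adjusted p = 0.85).

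**Figure D2:**
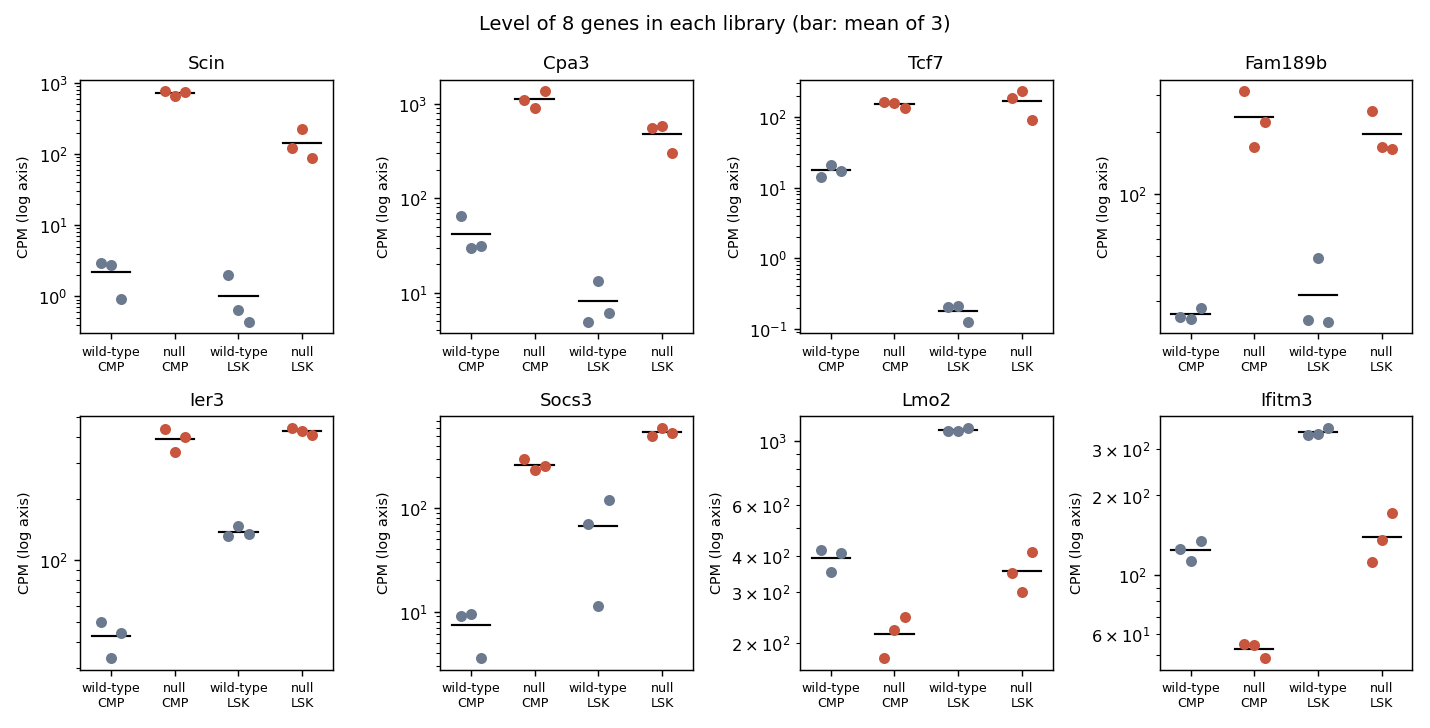
Levels in CPM (log axis, with a scale of its own in each panel) of 8 genes in each of the 12 libraries, with the mean of 3 as a bar. The enhancer-null libraries (red) of Scin, Cpa3, Tcf7, Fam189b, Ier3 and Socs3 lie above the wild-type ones (grey) of the same gate, and those of Lmo2 and Ifitm3 lie below them.

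The largest shared rises and falls were taken among calls without overlap in either gate and with 5 CPM or more in the higher genotype. Their separation in both gates thus follows from the choice. Of the 15 largest such rises, 9 passed whichever library was left out: Trpv4, Scin, Gzmb, Tcf7, Bcl11b, Cpa3, Socs3, Clec4e and Ffar2. Trpv4, a calcium-permeable cation channel, had 0 counts in all 3 wild-type LSK libraries and 19, 81 and 419 counts in enhancer-null LSK. In CMP it had 383, 359 and 302 counts in enhancer-null against 3, 15 and 2 in wild-type libraries (adjusted p of the average = 0.00691). Gzmb, a serine protease of cytotoxic granules that mast cells and basophils also make and the gene with 2 RUNX matches in its promoter window, was at 664, 475 and 280 against 1.97, 0.396 and 0.0666 CPM in CMP. Its LSK values were 23.8, 78.3 and 11 against 1.29, 0.355 and 0.381 CPM, and the average log2 fold change was 7.33 (SE 0.73, adjusted p = 0.00028). The enhancer-null level was thus lower in LSK than in CMP.

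Bcl11b, a zinc finger factor that T cell commitment requires, varied widely among enhancer-null CMP (89.8, 15.4 and 7.29 CPM) and stayed above the wild type (0.635, 2.88 and 0.0666 CPM). In LSK it was at 28.8, 24.4 and 18.2 against 0.115, 0.142 and 0.0634 CPM (average log2 fold change 6.34, SE 1.02, adjusted p = 0.00639). Clec4e, a C-type lectin that senses cell damage and mycobacterial lipid, rose by 3.98 (SE 0.64, adjusted p = 0.0064), and Ffar2, a receptor of short-chain fatty acids, by 3.80 (SE 0.55, adjusted p = 0.00345). Ffar2 was at 208, 104 and 147 against 12.2, 7.35 and 8.39 CPM in CMP, and at 129, 102 and 106 against 23.3, 2.2 and 2.47 CPM in LSK. The other 6 of the largest rises were each lost in several of the fits that left out 1 library. Gna14 passed in 6 of 12 fits that left out 1 library, Pdcd1 in 5, Abca4 in 4, Qrfp and Ccr1 in 3 and St8sia6 in 2, with the adjusted p reaching 0.0671, 0.0994, 0.109, 0.124, 0.121 and 0.125 in turn.

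Some genes of JAK-STAT cytokine signalling were higher in both gates. JAK kinases bound to cytokine receptors phosphorylate STAT factors, which switch on SOCS inhibitors and PIM kinases. In the list of 27 such genes, 26 were tested and 7 rose, Socs3, Pim1, Pim2, Stat3, Jak1, Jak3 and Osm, with none lower. All 7 had no overlap between genotypes in either gate. Of all genes tested 1.56% were called higher, and 1.02% were called higher without overlap in either gate. The list's median was 0.27, beside −0.05 for all genes. In it 9 members were negative, among them Socs2 (−2.58), Il6st (−1.66), Cish (−0.95) and Pim3 (−0.69), none of them called. Without wild-type number 1 in both gates 4 were called. Socs3, the inhibitor fed back by STAT3, was at 302, 237 and 255 against 9.15, 9.44 and 3.53 CPM in CMP and at 496, 600 and 538 against 70, 11.2 and 120 CPM in LSK. Its average log2 fold change was 4.09 (SE 0.46, adjusted p = 0.00072).

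Pim2, a serine kinase of survival signalling, rose by 2.70 (SE 0.32, adjusted p = 0.00103), from 19.9, 16.3 and 4.13 to 133, 137 and 209 CPM in CMP and from 42.9, 53.5 and 56.6 to 219, 152 and 174 CPM in LSK. Osm, which encodes the cytokine oncostatin M, was at 62.8, 67.4 and 132 against 27.7, 16.8 and 14.9 CPM in CMP and at 116, 159 and 88 against 17.6, 24 and 32.9 CPM in LSK. The log2 fold change of Osm was 2.14 in CMP and 2.28 in LSK (average 2.21, SE 0.30, adjusted p = 0.00203). Stat3 rose by 1.04 (SE 0.17, adjusted p = 0.00691), and Pim1, named after its values were seen, by 1.61 (SE 0.29, adjusted p = 0.0117). Pim1 in LSK came close to overlapping, at 67.1, 65.4 and 70 against 21.8, 64.6 and 41.2 CPM.

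Among 37 receptors tested, 3 rose and 1 fell (median 0.11, or −0.13 by limma voom), beside 1.56% and 0.741% of all genes tested. Pdgfrb, the receptor of platelet-derived growth factor B, rose from 19.9, 41.3 and 34.4 to 101, 166 and 196 CPM in CMP and from 39.1, 9.15 and 30.4 to 294, 161 and 193 CPM in LSK (average log2 fold change 2.66, SE 0.35, adjusted p = 0.00189). Pdgfrb is also in the list of stromal and endothelial genes. Summed markers of stroma were 129 to 209 CPM in enhancer-null against 45.4 to 95.3 CPM in wild-type CMP and 147 to 157 against 74.3 to 133 CPM in LSK. Nearly all of that sum was Pecam1, which blood progenitors also express. Cdh5 was at 0 in all enhancer-null libraries, and Col1a1 was at 0 in all but enhancer-null LSK replicate 1 (2.77 CPM). Col1a2 and Cxcl12 were higher in single enhancer-null libraries. Col1a2 reached 17.3 CPM in CMP replicate 1, against at most 0.604 CPM in any wild-type library. Cxcl12 reached 9.99 CPM in CMP replicate 7 and 17.9 CPM in LSK replicate 1, against at most 3.81 CPM. The part of stromal RNA in the Pdgfrb result was not tested.

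The other receptor rises were Tgfbr2, the type II receptor of TGF-beta (1.52, SE 0.24, adjusted p = 0.00593), and Il2rg, the common gamma chain (1.22, SE 0.23, adjusted p = 0.0139). For each the genotypes were apart in CMP and overlapped in LSK. Flt3, the receptor of multipotent and dendritic progenitors, fell by 1.54 (SE 0.29, adjusted p = 0.0139). Flt3 was at 88.5, 24.5 and 98.2 against 347, 606 and 346 CPM in CMP, and in LSK 629, 447 and 533 overlapped with 867, 769 and 584 CPM.

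Immediate early genes, which signalling and tissue handling both induce, gave 4 rises among 30 tested and none lower by edgeR (median 0.27), and 5 higher and 1 lower, Dusp6, by DESeq2. They were Ier3, Btg2, Junb and Ier2, and the list's median was 0.80 in CMP and −0.38 in LSK. Btg2, an antiproliferative p53 target, was higher in each gate without overlap (average 1.30, SE 0.20, adjusted p = 0.00483). Junb rose by 0.92 on average (SE 0.14, adjusted p = 0.00435), but its effect was 1.69 in CMP and 0.15 in LSK, and Ier2 passed in 4 of 12 fits that left out 1 library (adjusted p up to 0.117). Of 37 interferon response genes 1 rose, Usp18, an inhibitor of interferon signalling, and 1 fell, the GTPase Gbp3. Of all genes tested 1.56% were called higher and 0.741% lower.

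Some transcripts of mature granulocytes fell on average over the gates, and varied widely among wild-type libraries. Late neutrophil genes, which encode secondary granule and calcium-binding proteins, had 6 of 17 tested members lower and 1 higher, Itgam (median −5.58, or −5.48 with members at 0 in a group set to the floor). Of all genes tested 0.741% were called lower and 1.56% higher. S100a9, a subunit of calprotectin, was at 0.588, 7.62 and 1.38 CPM in enhancer-null CMP. Wild-type CMP had 515, 44.9 and 14.7 CPM of it. In LSK S100a9 was at 0.846, 0.971 and 2.23 against 310, 65.1 and 16.6 CPM. Wild-type number 1 was the highest in both gates, and the genotypes did not overlap (average log2 fold change −6.17, SE 1.08, adjusted p = 0.0101). Taken by itself neither CMP (adjusted p = 0.0762) nor LSK (0.186) passed for S100a9.

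S100a8, the other subunit, fell by 5.51 on average (SE 1.10, adjusted p = 0.0202; 0.102 in CMP and 0.306 in LSK) and passed in 8 of 12 fits that left out 1 library. It missed without enhancer-null CMP replicate 7 (adjusted p = 0.0615), wild-type CMP replicate 1 (0.0531) and enhancer-null LSK replicates 1 (0.0755) and 7 (0.0626). Camp passed in 6 of the 12 (adjusted p up to 0.0778), and its CMP values overlapped. Without wild-type number 1 in both gates edgeR called 0 of 14 late neutrophil genes (9 at an unadjusted p under 0.05), and their median was −3.09. With all libraries DESeq2 called 11 lower and limma voom 0. With genotype and number as a random block in limma voom, S100a9 and S100a8 missed (adjusted p = 0.339 and 0.319). Markers of mature neutrophils summed to 26.4 to 1469 CPM in wild-type CMP and 89.4 to 937 CPM in wild-type LSK, and to 2.47 to 19.7 and 2.61 to 21.8 CPM in enhancer-null libraries. The part of admixed neutrophils in these falls was not tested.

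**Figure D3:**
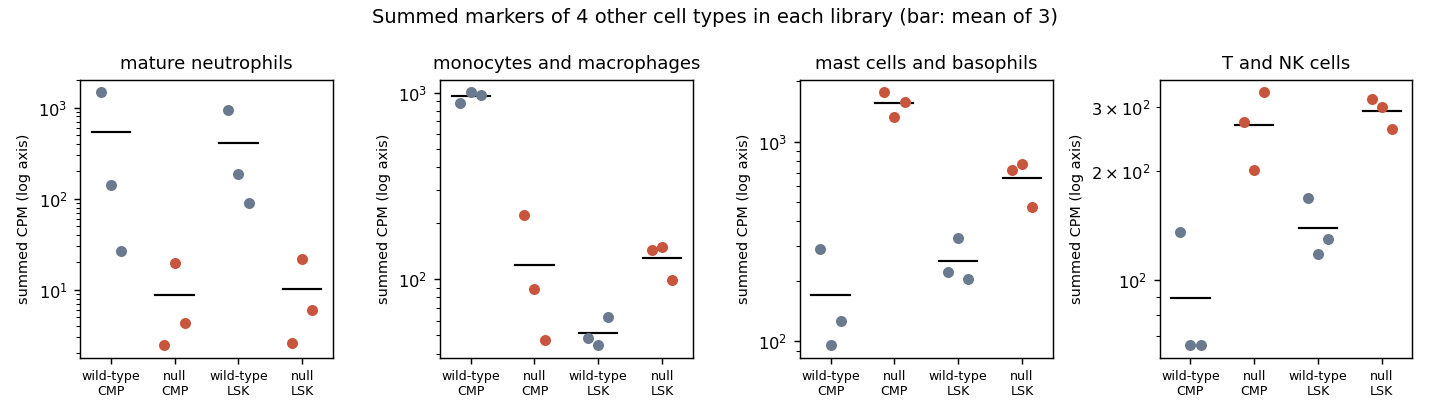
Summed CPM (log axis, with a scale of its own in each panel) of marker genes of 4 other cell types in each of the 12 libraries, with the mean of 3 as a bar. Neutrophil markers reached 1469 CPM in 1 wild-type CMP library and stayed at or below 21.8 CPM in all enhancer-null libraries, and monocyte markers were lower in enhancer-null CMP but higher in enhancer-null LSK than in the wild type.

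Monocyte and macrophage genes had 5 of 16 tested members lower and none higher (median −2.02; −3.21 in CMP and −0.89 in LSK). Across all genes tested, 0.741% were called lower. With sex as a covariate 2 of the 16 were called, Emb and Lyz2, and without wild-type number 1 in both gates 1, Emb (median −1.5). Emb, which encodes the cell surface glycoprotein embigin, was at 56, 30.8 and 76.7 against 661, 566 and 494 CPM in CMP and at 274, 127 and 193 against 329, 500 and 301 CPM in LSK. It fell by 2.16 on average (SE 0.25, adjusted p = 0.000751), most of it in CMP. Lyz2, lysozyme M, fell by 1.99 (SE 0.38, adjusted p = 0.0166) and missed without enhancer-null LSK replicate 1 (adjusted p = 0.051) or 2 (0.0542). Mpeg1 (6 of 12 fits, adjusted p up to 0.0885) and Ctss (7 of 12, up to 0.0826) were less stable. Summed monocyte markers did not move in 1 direction: they were 47.1 to 220 against 882 to 1002 CPM in CMP and 99 to 149 against 44.4 to 62.6 CPM in LSK.

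Primary granule genes split, with 3 of 17 higher (Mpo, Srgn and Nkg7) and 3 lower (Prtn3, Hk3 and Anxa3). Across all genes tested, 1.56% were called higher and 0.741% lower. Without wild-type number 1 in both gates 3 primary granule genes were called higher and none lower. Hk3, a hexokinase of myeloid cells, was at 0.588, 9.91 and 0.0628 against 163, 144 and 112 CPM in CMP and at 13.8, 20.2 and 16.1 against 87.6, 106 and 99.7 CPM in LSK. It fell by 3.91 (SE 0.73, adjusted p = 0.0139), and missed without enhancer-null LSK replicate 1 (0.0538). Nkg7, a granule protein of cytotoxic cells that early myeloid cells also express, rose on average and did not overlap in either gate (1.42, SE 0.23, adjusted p = 0.00628). Mpo, myeloperoxidase, was called higher on average although its signs were opposite: 2726, 2399 and 3308 against 4901, 4513 and 4173 CPM in CMP, and 1789, 2311 and 1212 against 447, 310 and 342 CPM in LSK. Its average log2 fold change was 0.79 (SE 0.15, adjusted p = 0.0132; 0.0505 without wild-type CMP replicate 8).

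Of the 10 largest shared falls, 4 passed whichever library was left out: Cebpa, Cyp2j6, S100a9 and Tmem243. Cyp2j6, a cytochrome P450 of arachidonic acid metabolism, had 0 counts in all 3 enhancer-null CMP libraries against 184, 136 and 93 in the wild type. In LSK it was at 9.3, 8.09 and 6.33 against 49.7, 77.1 and 47.8 CPM (adjusted p of the average = 0.000837). Tmem243, a membrane protein, had 0.118, 0.0498 and 0.0628 against 24.6, 15 and 27.9 CPM in CMP and 4.07, 3.24 and 5.63 against 23.6, 11.1 and 27.7 CPM in LSK (adjusted p = 0.00189). Both were thus near or below the floor in enhancer-null CMP and reduced but present in enhancer-null LSK. Btla, an inhibitory receptor of lymphocytes, was also at 0 counts in enhancer-null CMP (9 of 12 fits). It missed without wild-type CMP replicate 8 (0.0505), enhancer-null LSK replicate 7 (0.0608) and wild-type LSK replicate 8 (0.0502). Col4a1, a collagen IV chain, was at 0 there too and missed without enhancer-null LSK replicate 1 (0.0506). Atp1b1, Hp and Anxa3 each passed in 2 of the 12 (adjusted p up to 0.118, 0.159 and 0.106).

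Other regulators and lineages were read by their lists, beside 1.56% of all genes tested called higher and 0.741% called lower. Of 22 granulocyte and monocyte regulators edgeR called 4 higher, Gfi1b, Id2, Runx1 and Sox4, and none lower, while DESeq2 called 6 higher and 2 lower, Csf3r and Gfi1. Id2, an inhibitor of helix-loop-helix factors, was at 232, 111 and 84 against 20.4, 14.2 and 14.1 CPM in CMP and at 143, 144 and 67.3 against 14.7, 0.709 and 6.22 CPM in LSK (3.57, SE 0.56, adjusted p = 0.00519). Gfi1b, a transcriptional repressor that acts in megakaryocyte and erythroid development, was at 205, 233 and 220 against 78.7, 114 and 116 CPM in CMP. In LSK Gfi1b was at 80.3, 42.5 and 60.7 against 18.5, 26.7 and 16.3 CPM (1.34, SE 0.20, adjusted p = 0.00478). For both, the genotypes were apart in each gate. Sox4 rose by 0.97 (SE 0.14, adjusted p = 0.0042), and its LSK values overlapped. Runx1 passed in 1 of 12 fits that left out 1 library (adjusted p up to 0.135).

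Mast cell and basophil genes had 4 of 14 tested members higher and none lower (median 0.69), namely Cpa3, Gzmb, Ifitm1 and Gata2. The summed markers of these cells were 1325 to 1763 against 95.8 to 290 CPM in CMP and 472 to 773 against 205 to 328 CPM in LSK. That sum in enhancer-null cells was mostly Cpa3, while Prss34, Cma1 and Tpsb2 were at 0 in all 3 enhancer-null CMP libraries. Fcer1a, a chain of the IgE receptor, was at 20, 8.91 and 15.5 CPM in enhancer-null against 0, 0.396 and 0 CPM in wild-type CMP, and its average did not pass. The part of mast cell or basophil RNA in these rises was not tested. Gata2 was not a shared rise. Its effect was 2.69 in CMP and −0.53 in LSK, and it passed in 2 of 12 fits that left out 1 library (adjusted p up to 0.125).

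T and NK cell genes had 4 of 18 higher and none lower (median 1.81): Tcf7, Bcl11b, Lat and Zbtb16. Lat, the adaptor of the T cell receptor, rose by 1.45 on average (SE 0.21, adjusted p = 0.00383), with an effect of 2.74 in CMP and 0.16 in LSK. Zbtb16, the zinc finger factor PLZF, passed in 4 of 12 fits (adjusted p up to 0.113). Summed T and NK markers were 202 to 330 against 66.2 to 136 CPM in CMP and 261 to 316 against 118 to 169 CPM in LSK, and most of each sum was Nkg7. Of the CD3 chains of the T cell receptor complex, Cd3e peaked at 0.02, Cd3g at 0.697 and Cd3d at 2.94 CPM in enhancer-null libraries, and at 1.4, 0.719 and 1.49 CPM in wild-type ones. Cd4 reached 29.6 CPM in enhancer-null and 38.9 CPM in wild-type LSK. In the list 13 members were positive and 5 negative. Positive without passing were, among others, Prf1 (7.35), Gzma (5.49), Thy1 (3.25) and Il2rb (2.85). The 5 negative members were Lef1 (−2.42), Klrb1c (−2.08), Cd4 (−1.0), Notch1 (−0.11) and Il7r (−0.02), none of them called. Without wild-type number 1 in both gates 2 of the 18 were called. The part of T and NK cell RNA in these rises was not tested. Of 12 B cell genes 0 were called by edgeR (4 at an unadjusted p under 0.05, 2 by DESeq2 and 1 by limma voom), and all 12 were negative (median −1.82). Without wild-type number 1 in both gates 5 of 10 were negative (median −0.26).

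Megakaryocyte and platelet genes had 7 of 24 higher and none lower, Itga2b, F2r, Plek, Gfi1b, Nfe2, Selp and Cd9. Their median was 0.33 by edgeR, but −0.36 by limma voom, with 13 negative and 6 called higher, and 3 were called without wild-type number 1 in both gates. Itga2b, the platelet integrin CD41 that early progenitors also carry, was at 235, 96.2 and 128 against 15.8, 40.4 and 22.4 CPM in CMP and at 121, 130 and 118 against 33.3, 30.4 and 32.3 CPM in LSK. It rose by 2.24 (SE 0.28, adjusted p = 0.00128). F2r, the thrombin receptor, rose by 1.95 (SE 0.29, adjusted p = 0.00383) and overlapped in LSK, where it was at 86.3, 137 and 114 against 33.2, 102 and 47.2 CPM. Plek, pleckstrin, rose by 0.82 without overlap (SE 0.14, adjusted p = 0.00889). Summed megakaryocyte markers were higher in every enhancer-null CMP library (up to 263 CPM, against 119 CPM at most in wild type) and lower in enhancer-null LSK, 176 to 210 against 287 to 420 CPM. Erythroid genes had 1 of 28 higher, Nfe2, and none lower (median −0.40), with 16 negative and 1 positive in both gates. Nfe2 passed in 1 of 12 fits (adjusted p up to 0.118), and its LSK effect was negative. Without wild-type number 1 in both gates the list's median was 0.31, with 17 positive. Summed erythroid markers were 739 to 1134 against 1392 to 1710 CPM in LSK, and overlapped in CMP (2847 to 6322 against 4229 to 4848 CPM).

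Stem cell genes moved both ways on average, 7 of 44 higher and 5 lower (median −0.16), or 3 and 1 without wild-type number 1 in both gates. Of the 44, 19 were negative and 8 positive in both gates. No overlap in either gate was found for 4 of the 5 falls and 2 of the 7 rises. Among all calls it was found for 67 of 92 falls and 127 of 193 rises. Gata2 and Zfp36l2, among the rises, had opposite signs in the gates. Lmo2 (ENSMUSG00000032698.15, chromosome 2, 103957986 to 103981878, plus strand), an adaptor of the TAL1 and GATA complexes, was at 177, 222 and 246 against 420, 352 and 409 CPM in CMP. In LSK it was at 350, 301 and 412 against 1080, 1078 and 1107 CPM, so that enhancer-null LSK stood near the wild-type CMP level. Lmo2 fell by 1.25 (SE 0.11, adjusted p = 9.34e-05). Mecom and Hlf, stem cell transcription factors named after their values were seen, were each lower without overlap in both gates. Hlf in LSK was at 29.7, 49.8 and 112 against 437, 394 and 491 CPM (average −2.45, SE 0.55, adjusted p = 0.0391). Each was lost in most fits that left out 1 library, Hlf passing in 3 and Mecom in 2 of 12 (adjusted p up to 0.109 and 0.118). Mycn, a MYC family factor, rose from 13.1, 26.4 and 41.2 to 251, 191 and 516 CPM in CMP and from 148, 150 and 170 to 299, 294 and 365 CPM in LSK (2.30, SE 0.29, adjusted p = 0.00148).

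Ifitm1 and Ifitm3, neighbouring genes of interferon-inducible membrane proteins, moved in opposite directions. Ifitm3 (chromosome 7, 141009586 to 141010770, minus strand), named after its values were seen, was at 55.2, 54.9 and 48.8 against 126, 113 and 135 CPM in CMP and at 112, 136 and 172 against 337, 342 and 359 CPM in LSK. The log2 fold change was −1.24 in CMP and −1.31 in LSK (average −1.27, SE 0.14, adjusted p = 0.000466). Ifitm1 was at 722, 484 and 480 against 34.6, 36.4 and 40.3 CPM in CMP and at 657, 605 and 445 against 268, 321 and 339 CPM in LSK (2.40, SE 0.15, adjusted p = 1.98e-06). The 2 genes are paralogs, and reads shared between them could be split in counting. Among 18 surface proteins that define progenitor gates, 5 rose on average (Cd48, Itga2b, Cd9, Cd244 and Cd63) and 2 fell (Cd34 and Flt3). The shares called among all genes tested were 1.56% higher and 0.741% lower.

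Most genes of mitosis, ribosomes and respiration had negative effects. Of all 12411 genes tested 6617 were negative, and 0.741% were called lower. Of 34 G2 and mitosis genes 33 were negative, with 5 lower and none higher (median −0.74): Cdk1, Aurkb, Nusap1, Ube2c and Pbk. Ube2c, a ubiquitin-conjugating enzyme of mitotic exit, was at 85.5, 111 and 120 against 248, 184 and 205 CPM in CMP and at 37.3, 42.4 and 43.9 against 95.8, 83.5 and 64 CPM in LSK. It fell by 1.01 in CMP and 0.98 in LSK (average −0.99, SE 0.17, adjusted p = 0.00764), with no overlap. Aurkb passed in 7, Nusap1 in 6 and Pbk in 8 of 12 fits that left out 1 library (adjusted p up to 0.0633, 0.0663 and 0.0595). Without wild-type number 1 in both gates edgeR called 0 of the 34 (12 at an unadjusted p under 0.05), with 33 negative (median −0.58). With sex as a covariate 1 of the 34 was called, and 10 by DESeq2. DNA replication genes gave 2 of 43 lower, Pcna and Pold2, which passed in 2 and 3 of the 12 fits (adjusted p up to 0.12 and 0.106). With sex as a covariate or without wild-type number 1 in both gates edgeR called 0 of the 43 (9 and 8 at an unadjusted p under 0.05), while DESeq2 with all libraries called 5 lower.

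Of 75 cytoplasmic ribosomal protein genes 74 were negative and 6 were called lower (median −0.20), Rplp1, Rps14 and Rpsa among them. The share called lower among all genes tested was 0.741%. For the ribosomal genes the count varied with the fit. DESeq2 called 15 and limma voom 12, against 3 with sex as a covariate and 1 without wild-type number 1 in both gates, where 72 were negative (median −0.17). Rplp1 was at 813, 807 and 896 against 1280, 988 and 1233 CPM in CMP and at 864, 814 and 890 against 1199, 1461 and 1201 CPM in LSK (−0.53, SE 0.09, adjusted p = 0.0064), and neither gate overlapped. Rps14 passed in 6 and Rpsa in 3 of the 12 fits (adjusted p up to 0.0987 and 0.0897). Respiratory chain genes gave 1 of 81 lower by edgeR, a share near the 0.741% of all genes, and 10 by DESeq2. It was Ndufa4, which missed without enhancer-null LSK replicate 1 (0.0541), and 70 were negative (median −0.26). CPM values are shares of a library, so these medians are relative to the other genes. Under relative log expression scaling 74 ribosomal, 71 respiratory and 33 mitosis genes were negative, and the median of all genes remained at −0.05.

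**Figure D4:**
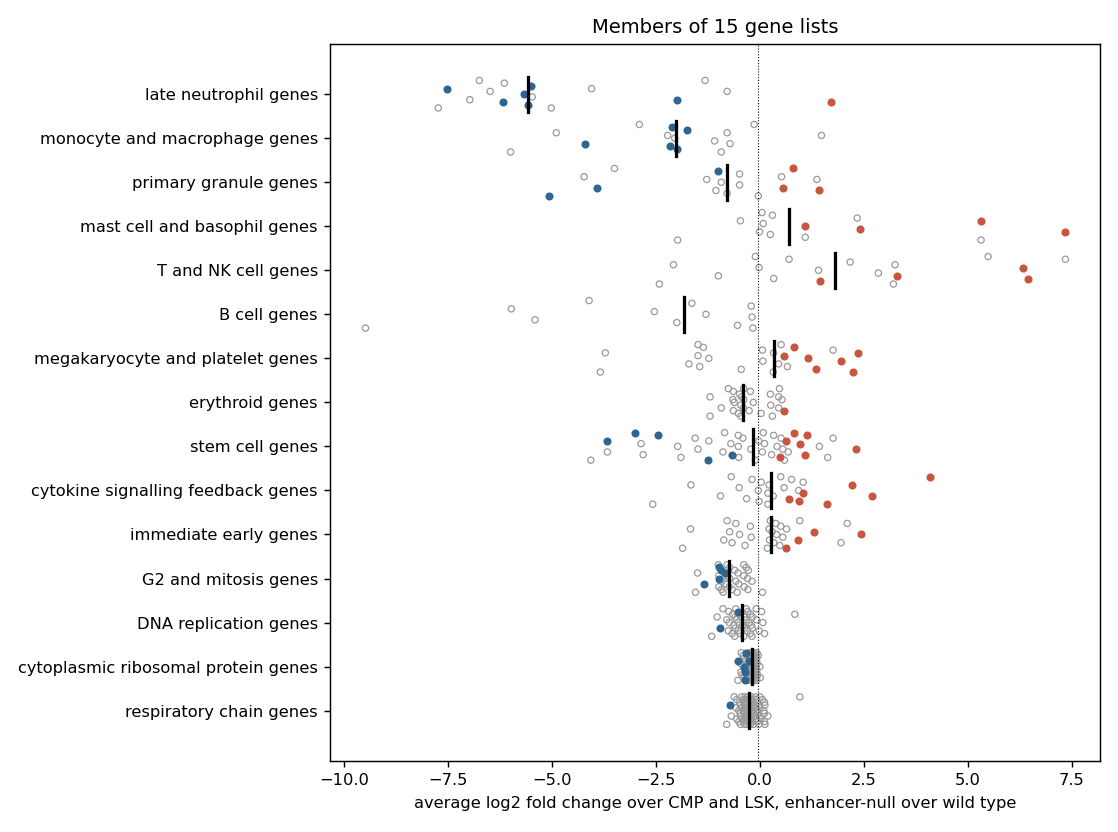
Average log2 fold change over CMP and LSK (enhancer-null over wild type) of each tested member of 15 gene lists, with filled points for called genes (red higher, blue lower), a bar at each list's median and a dotted line at the median of all genes (−0.05). The late neutrophil and monocyte lists lie to the left, while called members of the mast cell, T and NK cell and cytokine signalling lists lie to the right.

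The remaining lists gave few calls, beside 1.56% of all genes tested called higher and 0.741% called lower. Glycolysis genes had 3 of 22 lower, Hk3, Gapdh and Pgam1, and MHC class II genes 2 of 12 lower, Ctss and H2-DMa. H2-DMa, which loads peptides onto class II molecules, fell without overlap (−1.24, SE 0.19, adjusted p = 0.00478). Dendritic cell genes had Id2 higher and Flt3 lower among 18. p53 targets gave 2 rises, Btg2 and Trp53inp1, and 1 fall among 20. The fall was that of Plk2, a stress-induced polo-like kinase, at 0.235, 3.39 and 0.754 against 30.3, 27.4 and 18.2 CPM in CMP and 40.8, 38.8 and 78.2 against 119, 92.1 and 193 CPM in LSK (−2.70, SE 0.49, adjusted p = 0.0117). Trib3, a pseudokinase of the amino acid stress response, was the 1 of 24 stress genes called lower. Its wild-type LSK values of 13.7, 25.2 and 15 CPM faced 0, 0 and 0.02 CPM, and it missed without any 1 of the 3 enhancer-null LSK libraries (adjusted p up to 0.0577). Of 18 lymphoid priming genes 1 was lower, Flt3, and of 2 eosinophil genes tested 0 were called by edgeR, DESeq2 or limma voom (0 at an unadjusted p under 0.05). Cholesterol synthesis genes had 0 of 27 called by edgeR (2 at an unadjusted p under 0.05) and sex-linked genes 0 of 9 (0 at an unadjusted p under 0.05), and DESeq2 and limma voom each called 0 of both.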

How the data were processed

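RNA of CMP and LSK cells sorted from bone marrow was converted to cDNA with a low-input kit and sequenced as 75 bp read pairs, per the labels' protocols. Each library has a table of raw read counts by gene symbol, deposited by the authors. The submitters' processing notes name HTSeq, Bowtie, TopHat and TopHat2 2.0.4, and the mm10 build. How reads were counted, with which annotation and whether by strand, is not given in the sources used here. Exons that overlap on opposite strands could therefore share reads (Cebpa, Stat3, Junb, Hk3, Emb, Tmem243, Col4a1, Ube2c and H2-DMa among the genes described).

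Rows without a gene held 37.2% to 46.9% of counts and were dropped. One file (wild-type CMP replicate 6) lists 23456 symbols and the other 11 list 24420, so genes were joined on 22779 identical symbols, which left out 1.04% to 1.57% of gene counts per library. No 2 libraries agreed within sampling noise (replicate pairs had a chi-square of 44.3 to 193 per degree of freedom). Genes were filtered by edgeR's default (minimum count 10), scaled by TMM, and fitted by edgeR's robust quasi-likelihood method (edgeR 4.0.16, R 4.3.3) with 1 coefficient for each of the 4 groups, whose contrasts gave the average, each gate and their difference. The biological coefficient of variation was 0.82. The SE is the log2 fold change divided by the root of F. "No overlap" means that all libraries of one genotype exceeded all of the other. CPM use the TMM scaling of all 12 libraries. Counts carry no molecular identifiers, so floors cover counting error only. The pipeline was tested on simulated data. Positions are from GENCODE vM21 (mm10).

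The labels do not say whether libraries of 1 group, or of 1 number in both gates, come from separate animals, so p-values measure the spread between these libraries. Deviations of same-numbered libraries correlated at −0.0317 to 0.0401 (threshold 0.1), so no block was used in the main fit. All 6 numbers had the same sex in both gates, so pairing by animal remains possible. Gene lists and members were chosen with earlier results of these data known, and their counts are descriptions without a test. Named genes were the CEBP family, the 15 largest rises and 10 largest falls among called genes with the same sign, no overlap and a higher genotype averaging 5 CPM or more in each gate, genes past the threshold by the larger p, up to 4 called members per list (or else the one with the smallest p), and the 4 called genes with the smallest p for the difference. Ifitm3, Mecom, Hlf, Pim1 and genes given by name alone or as markers were added after their values were seen. DESeq2 1.42.0, limma 3.58.1, other scaling and filters, sex as a covariate, block fits and left-out libraries were alternatives.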

Additional observations from a re-analysis of the deposited data

Results flagged for a closer look

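For 12 named genes the genotype effect differed between CMP and LSK by edgeR's test of the difference itself (effect in CMP minus effect in LSK, log2, Benjamini-Hochberg adjusted over all genes). In 3 of them the effects had the same sign in both gates and differed in size: Tcf7 at −6.70 (adjusted p = 0.000207), Ier3 at 1.57 (0.0205) and Ifitm1 at 3.04 (0.000411). Of Lat (2.58, adjusted p = 0.0258) and Junb (1.54, 0.0433), both effects were positive, with the LSK effect within the spread between libraries. The CMP effect was positive and the LSK effect negative in 6, Gata2 (3.22, adjusted p = 0.0206), Zfp36l2, an mRNA-decay protein (1.29, 0.00469), Nfe2 (1.52, 0.033), Scd2, a desaturase (1.34, 0.0322), Cd63, a tetraspanin of granules (3.70, 0.00203), and Ctla2a, a protease inhibitor (3.24, 0.000207). Mpo went the other way (−2.96, adjusted p = 0.000727). Ctla2a was at 239, 158 and 213 CPM in enhancer-null against 44, 29.7 and 37.3 CPM in wild-type CMP, and at 312, 361 and 365 against 539, 617 and 631 CPM in LSK, so that each gate was apart in its own direction. Cd63 was at 436, 300 and 289 against 50.3, 22.8 and 27 CPM in CMP and overlapped in LSK. For the 7 genes with opposite signs the average is not a change in both gates.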

How the results depend on the processing

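DESeq2 called 806 genes on average, 56.7% of them higher against 67.7% in the edgeR fit, of which 755 had the same sign in both gates, 377 no overlap and 44 passed by the larger p. Sex as a covariate gave 182, 173 and 128 for the first 3 counts, and the fit without a filter on low counts gave 12 by the larger p. With 1 library left out the 4 counts ran from 146 to 470, 140 to 434, 119 to 269 and 4 to 8. With both libraries of a number left out they ran from 98 to 285, 91 to 257, 81 to 197 and 2 to 6. In these the average calls were 152 and 164 without enhancer-null numbers 1 and 7, and 98, 168 and 102 without wild-type numbers 1, 6 and 8. The same-sign counts were 147, 157, 91, 163 and 99 in that order, and without overlap 127 remained without enhancer-null number 1, 81 without wild-type 1 and 89 without wild-type 8, and 2 by the larger p without wild-type 8. The replicate block was fitted because the labels leave pairing by number open, and all 6 numbers had the same sex in both gates. With 1 value per genotype and number, the block gave 134, 126 and 96 calls. As a random block in limma voom it gave 2 genes by the larger p, as did limma voom with no block, Fam189b and Ier3. Of 12 libraries 6 correlated best with their own number. Of the 285 calls 65 passed the average test in every alternative, Scin, Cpa3, Tcf7, Ier3, Fam189b, Lmo2 and Ifitm3 among them. By the larger p no gene of the 5 passed in every fit. The fit without wild-type number 8 kept only Cpa3 and Scin, and limma voom only Fam189b and Ier3. Among the named genes signs turned for 3, none of them called. Cebpd was at 0.25 and 0.35 in the block fits, 0.24 in limma voom with no block and 0.12 without wild-type number 1. Cebpz was at −0.0019 under DESeq2, −0.0017 under relative log expression scaling, −0.08 in the block fit with 1 value per number, −0.15 to 0.20 with 1 library left out, and −0.24, −0.11, −0.12 and −0.05 without enhancer-null numbers 2 and 7 and wild-type numbers 1 and 8. Il5ra ran from −1.62 to 4.59 with 1 library left out, and was at −1.39 and −1.31 without enhancer-null numbers 2 and 7. Il5ra is limited by depth, with 39, 30 and 105 counts in single libraries of 3 groups.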
